A study of Mus musculus with 30 samples.

Results

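The ABC efflux transporters of hepatocytes examined here are 10 genes of subfamilies B, C, and G, namely Abcc1, Abcc2, Abcc3, Abcc4, Abcc6, Abcg2, Abcg5, Abcg8, Abcb1a, and Abcb4. They were picked by gene symbol with earlier results of these data known, and each of the 10 was matched by its Ensembl identifier among the 55335 genes of the count table. Expression was measured by RNA-seq in mouse liver. The livers came from male albino C57BL/6J mice of 7 to 10 weeks, a strain written B6(Cg)-Tyr c-2J/J, and were collected 24 hours after 1 oral dose of CDDO-Me at 30 µmol/kg or of its vehicle of DMSO, Cremophor-EL, and PBS. CDDO-Me is a synthetic triterpenoid that activates NRF2, the transcription factor that drives cytoprotective genes, by reacting with cysteines of its repressor KEAP1.

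Wild-type mice were compared with homozygous C151S mice, in which CRISPR-Cas9 editing replaced a reactive cysteine of KEAP1 with serine, as the name states, and with homozygous Nrf2-knockout mice, which lack functional NRF2 in every tissue. Each genotype received vehicle or CDDO-Me, which gave 6 groups of 5 mice and 30 libraries. Wild-type mice were obtained from a commercial supplier and the mutants were bred by homozygous mating, so that genotype and colony of origin cannot be told apart. The comparisons ask whether liver transporter transcripts respond to CDDO-Me and whether a response needs the cysteine of KEAP1 or NRF2 itself.

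ABC transporters use ATP to move substrates out of the cell. In the hepatocyte they sit on opposite faces. On the canalicular face, facing bile, ABCC2 (also called MRP2) exports conjugated bilirubin and glutathione conjugates, ABCG2 exports sulfated compounds and many drugs, ABCG5 and ABCG8 together export sterols, ABCB4 moves phosphatidylcholine into bile, and ABCB1A is a P-glycoprotein that exports lipophilic drugs. On the face toward the blood, ABCC3 and ABCC4 export glucuronides, sulfates, and bile acids, and ABCC6 releases ATP. ABCC1 exports glutathione conjugates and is known to be low in resting hepatocytes.

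NRF2 binds antioxidant response elements with the core TGACNNNGC, where N is any base. The 250 bases before annotated transcription starts were searched for this core on both strands in the RefSeq table for GRCm38.p6. That table held 11 windows for 7 of the 10 genes and none for Abcc1, Abcc3, and Abcc6. Those genes were therefore not searched, and Abcc3 is among the genes that changed with treatment below. The core was present in the window of Abcc2 and in both windows of Abcc4, and its letters were not in the windows of Abcg2, Abcg5, Abcg8, Abcb1a, and Abcb4. The only Abcb1a window, chr5:8566841-8567090, lies far upstream of the GENCODE start of that gene at 8660077. The bases just before the GENCODE start of Abcb1a were therefore not searched. Among all 32851 windows of the table, 10.2% held it. A match is a description of letters and not a measured binding site. The matches are shown because Abcc2 and Abcc4 are among the genes that changed with treatment below, with the bases of the core in capitals, 5′ to 3′ on the strand of the gene, and with 10 bases on each side.
Abcc2, chr19:43782200-43782228, plus strand: ctcactgggaTGACATAGCattcatctag
Abcc4, chr14:118706226-118706254, minus strand: gccccgagagGCGGGGTCAgggcgggccg
Abcc4, chr14:118676936-118676964, minus strand: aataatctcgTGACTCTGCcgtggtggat
The Abcc2 core ended 90 bases before the RefSeq start and lay inside the first exon of the GENCODE transcript, which begins upstream at position 43782192. The Abcc4 cores ended 17 and 15 bases before their starts, and the first reads TGACNNNGC on the strand opposite to the gene. It belongs to the outermost start of Abcc4, whose whole window, chr14:118706220-118706469 on the minus strand, is rich in G and C at 72.0%.
Abcc4 window: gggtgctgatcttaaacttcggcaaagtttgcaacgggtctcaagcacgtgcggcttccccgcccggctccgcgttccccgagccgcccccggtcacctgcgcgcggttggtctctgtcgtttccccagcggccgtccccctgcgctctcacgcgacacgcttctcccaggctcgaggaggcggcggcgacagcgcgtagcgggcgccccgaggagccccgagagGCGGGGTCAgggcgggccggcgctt

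Libraries held 23667068 to 42073169 counts on genes, and expression is given as CPM, the counts scaled to the size of the library, after correction by the trimmed mean of M values. The Nrf2-knockout label was compared with Nfe2l2, the gene of NRF2. It stood at 66.1 ± 4.15 CPM (SD, n = 5) in vehicle-treated wild-type livers and at 35.1 ± 4.54 CPM in vehicle-treated Nrf2-knockout livers. Reads of Nfe2l2 thus remained in the knockout, and these counts cannot show that both alleles were disrupted. Nqo1, a classic NRF2 target, stood after CDDO-Me at 64.3 ± 25.0 CPM in wild-type, 7.05 ± 1.04 in C151S, and 2.55 ± 0.61 in Nrf2-knockout livers. Nqo1 is itself an outcome of the study, and a single changed codon of Keap1 cannot be seen in counts. The C151S label thus had no independent check. All 10 hepatocyte markers examined, such as Alb and Apob, were above 3 counts in every library, and their sum ranged from 104800 to 183200 CPM, against 18.1 to 61.9 CPM for 6 cholangiocyte markers and 153 to 328 CPM for 6 markers of sinusoidal endothelium. The clock gene Arntl parted the libraries into 11 with a log2 CPM of -1.15 to 0.90 and 19 with 2.52 to 4.79. All 10 wild-type livers were on the high side, whereas 5 of 10 C151S and 6 of 10 Nrf2-knockout livers were on the low side. Fits on the high side only, and fits with the side as a covariate where they could be run, are given below where they changed a call. In whole liver, fewer cells of a type and less RNA per cell cannot be told apart.

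Per kilobase of exon, the order of the transporters in vehicle-treated wild-type livers ran from Abcc2 to Abcc1. Abcc2 was highest at 90.5 ± 8.47 RPKM (CPM divided by kilobases of exon, SD, n = 5), followed by Abcc3 at 62.2 ± 7.07. Abcc6 at 32.2 ± 2.40, Abcg5 at 27.0 ± 5.34, Abcg8 at 24.2 ± 3.28, and Abcb4 at 23.5 ± 1.83 RPKM came next, and neighbours in that order differed by less than the larger of their SDs. Abcg2 followed at 12.3 ± 1.41 RPKM. The remaining transporters were far lower, with Abcc4 at 0.70 ± 0.21, Abcb1a at 0.47 ± 0.057, and Abcc1 at 0.12 ± 0.029 RPKM. These 3 rested on few reads, namely 35 to 144 counts per library for Abcc1, 56 to 912 for Abcc4, and 48 to 470 for Abcb1a.

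CDDO-Me raised 4 of the 10 transporters in wild-type liver and lowered none. Abcc2, Abcc3, Abcc4, and Abcb1a passed the test, which required a Benjamini-Hochberg false discovery rate under 0.05 in edgeR over all genes tested and a log2 fold change of 0.5 or more in either direction. Of the 13697 genes tested, 2.75% were called in this comparison. The median log2 fold change of the 10 transporters was 0.59, against -0.01 over all genes tested. In each of the 4, every treated mouse was above every vehicle-treated mouse. The 4 were picked by the test, and how many of all genes separate in this way was not counted.

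Abcc4, a basolateral exporter, changed most among the 10. The 5 vehicle-treated wild-type livers held 5.36, 6.35, 3.52, 3.36, and 3.71 CPM, and the 5 treated livers held 9.78, 13.9, 14.5, 19.3, and 28.0 CPM. The highest control was thus below the lowest treated liver, although the treated livers spread widely among themselves. The log2 fold change was 1.94 ± 0.27 (SE), a 3.84-fold difference with an edgeR adjusted p of 0.00143.

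Abcc3, its more abundant neighbour on the same face, held 425, 343, 339, 326, and 338 CPM in vehicle-treated and 539, 580, 803, 751, and 836 CPM in CDDO-Me-treated wild-type livers. Replicate 1 of the controls stood above the other 4, which lay between 326 and 343 CPM. The log2 fold change was 0.98 ± 0.13 (adjusted p = 0.000935 in edgeR), or 1.97-fold.

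Abcc2, the canalicular exporter of bilirubin conjugates and the most abundant transporter of the set, held 846, 667, 762, 835, and 753 CPM in vehicle-treated and 1230, 985, 1412, 1244, and 1563 CPM in CDDO-Me-treated wild-type livers. The log2 fold change was 0.73 ± 0.12 (adjusted p = 0.00366 in edgeR), or 1.66-fold. In absolute reads this was the largest gain of the 10, from a mean of 773 ± 72.3 to 1287 ± 217 CPM.

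Abcb1a, a P-glycoprotein gene, held 2.42, 2.47, 2.89, 2.86, and 2.15 CPM in vehicle-treated and 3.48, 4.30, 4.13, 3.28, and 5.84 CPM in CDDO-Me-treated wild-type livers. The log2 fold change was 0.71 ± 0.17, or 1.63-fold, with an edgeR adjusted p of 0.0342. The groups did not overlap, but the call was near its threshold. It was lost when CDDO-Me replicate 2 or 3 or vehicle replicate 1, 3, 4, or 5 was left out, with edgeR adjusted p values of 0.0734, 0.064, 0.0751, 0.059, 0.0513, and 0.0947 in that order, and in a fit of all 30 libraries, with 0.549.

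**Figure D1:**
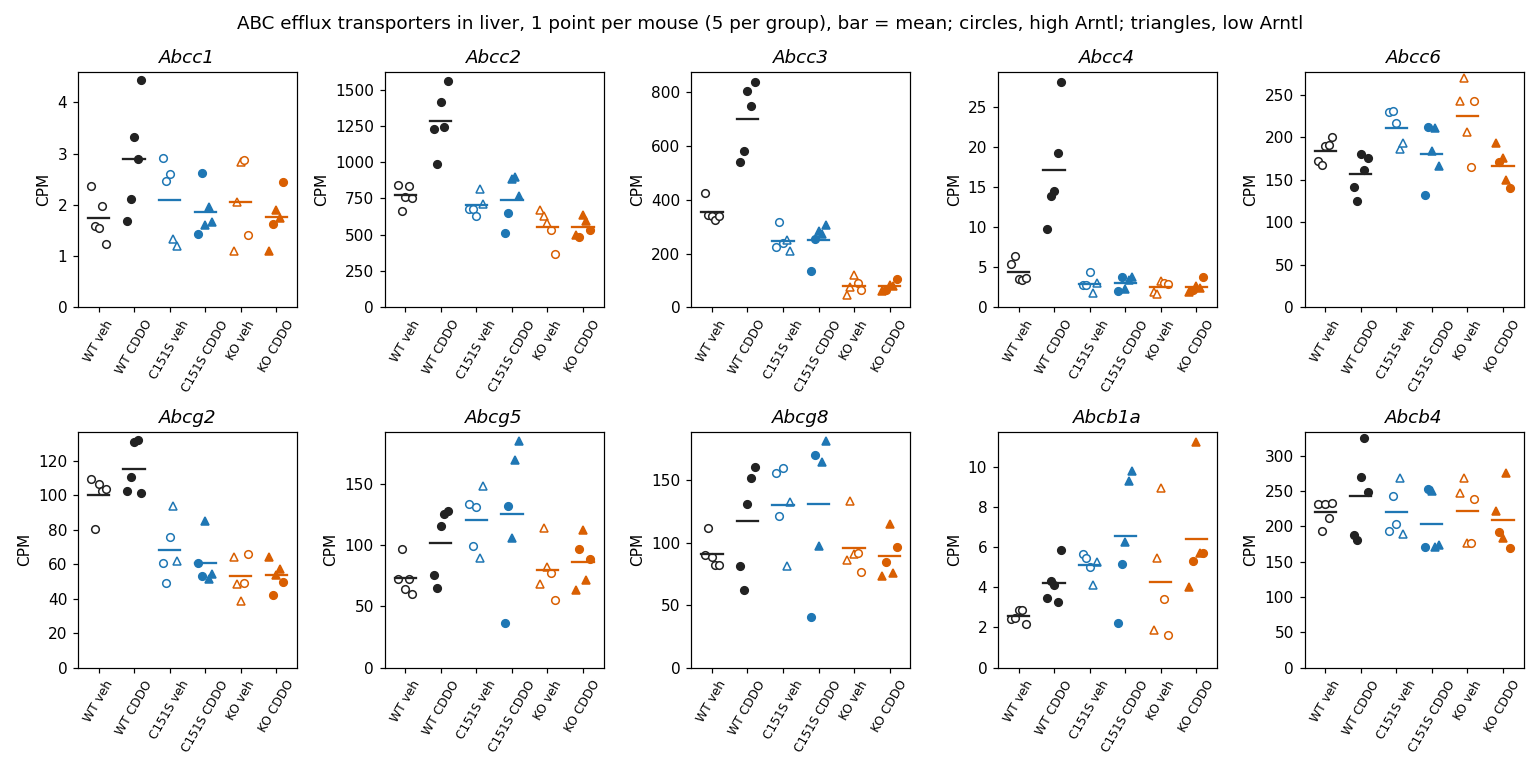
Expression of each of the 10 transporters in CPM (vertical axes, from 0) in the 6 genotype and treatment groups (horizontal axes; veh, vehicle; CDDO, CDDO-Me; KO, Nrf2-knockout). Each point is 1 mouse, bars are means of 5 mice, open symbols are vehicle, filled symbols are CDDO-Me, and triangles mark livers on the low side of Arntl; the treated wild-type points of Abcc2, Abcc3, Abcc4, and Abcb1a lie above all vehicle-treated wild-type points.

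The other 6 transporters did not pass the test in wild-type liver. Abcc1, the low-abundance exporter of glutathione conjugates, held 2.37, 1.58, 1.55, 1.98, and 1.24 CPM in vehicle-treated and 1.68, 2.12, 3.31, 2.90, and 4.43 CPM in treated livers. Its log2 fold change of 0.73 ± 0.26 was as large as that of Abcc2, but the groups overlapped and the edgeR adjusted p was 0.147. The sterol exporter genes had log2 fold changes of 0.47 ± 0.19 for Abcg5 (adjusted p = 0.230) and 0.36 ± 0.22 for Abcg8 (adjusted p = 0.463). The values for Abcg2 and Abcb4 were 0.20 ± 0.10 and 0.13 ± 0.14, with 95% intervals of -0.03 to 0.42 and -0.18 to 0.44. Abcc6, the basolateral transporter linked to ATP release, had the only negative value, -0.24 ± 0.10 (adjusted p = 0.234).

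Beside these changes, 1 of the 10 hepatocyte markers was called in wild-type liver, Cyp3a11, a drug-metabolizing cytochrome P450, at -1.04 ± 0.14. The summed hepatocyte markers ranged from 121800 to 143400 CPM in vehicle-treated and from 104800 to 127600 CPM in treated wild-type livers. No marker of cholangiocytes, Kupffer cells, sinusoidal endothelium, stellate cells, or lymphocytes was called. Of the neutrophil markers S100a8 rose, and neutrophil markers summed to at most 3.14 CPM in these livers. Ly6g, Retnlg, and Mpo were each at 0 in at least 1 of the 30 libraries. The part of these shifts in the transporter values was not tested.

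No transporter was called after CDDO-Me in C151S or in Nrf2-knockout liver. By edgeR, 0.092% of 14128 genes tested were called in C151S mice and 0% of 14474 in Nrf2-knockout mice, with 1942 and 1136 genes at an unadjusted p under 0.05. Of the 10 transporters, 0 and 1 had such a p. DESeq2 called 0 of them in either genotype, among 100 and 52 genes called in all. The median log2 fold change of the 10 was 0.00 in C151S and -0.03 in Nrf2-knockout mice. Treated and vehicle-treated ranges overlapped for every transporter, and how many of all genes overlap in this way was not counted.

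Abcc4 showed this clearly. In C151S livers it held 2.78, 2.72, 4.34, 1.82, and 3.01 CPM after vehicle and 2.07, 3.79, 2.29, 3.39, and 3.77 CPM after CDDO-Me, a log2 fold change of 0.05 with a 95% interval of -0.50 to 0.61. In Nrf2-knockout livers it held 1.93, 1.71, 3.22, 2.97, and 2.86 CPM after vehicle and 1.86, 2.15, 2.68, 2.43, and 3.72 CPM after CDDO-Me, a log2 fold change of 0.01 with an interval of -0.53 to 0.55. Neither interval reached the wild-type value of 1.94.

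For Abcc3 the intervals were -0.44 to 0.45 in C151S and -0.55 to 0.49 in Nrf2-knockout mice. For Abcc2 they were -0.27 to 0.41 and -0.38 to 0.33. Those of Abcb1a were wide, -0.34 to 1.04 and -0.41 to 1.55, and both included the wild-type value of 0.71. The smallest p value for any of the 10 in the mutants belonged to Abcc6 in Nrf2-knockout mice, where the log2 fold change was -0.45 ± 0.14 with an unadjusted p of 0.00693 and an edgeR adjusted p of 0.547.

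**Figure D2:**
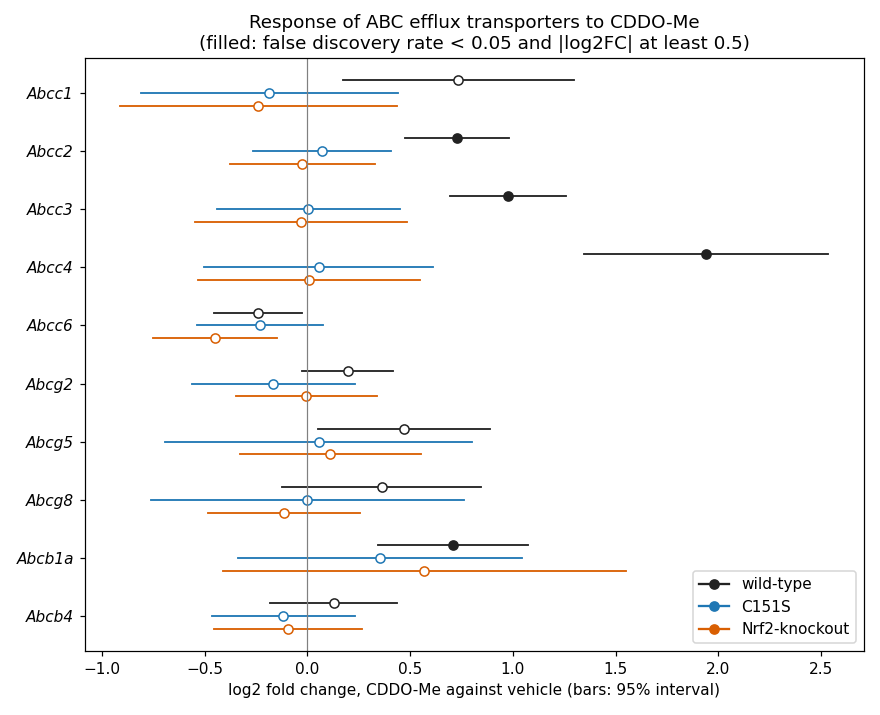
Log2 fold change of each transporter after CDDO-Me against vehicle (horizontal axis) in the 3 genotypes, 5 mice per group, with 95% intervals as bars. Filled points passed the test; only wild-type points of Abcc2, Abcc3, Abcc4, and Abcb1a are filled, at 0.73, 0.98, 1.94, and 0.71.

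The difference between responses was tested in 1 edgeR fit of all 30 libraries, at a false discovery rate under 0.05. Among the 10, Abcc4 alone passed. Its response was larger in wild-type than in C151S mice by 1.88 ± 0.38 on the log2 scale (adjusted p = 0.0104) and larger than in Nrf2-knockout mice by 1.93 ± 0.38 (adjusted p = 0.015). Of the 15010 genes tested, 0.48% and 0.266% were called in these contrasts. For Abcc3 the differences were 0.97 ± 0.29 and 1.00 ± 0.29, with adjusted p values of 0.240 and 0.248. For Abcc2 they were 0.66 ± 0.21 and 0.75 ± 0.21, with adjusted p values of 0.319 and 0.209, and they passed with the Arntl side as a covariate, an alternative added after the data were seen (0.0296 and 0.0486). Without replicate 5 of the vehicle-treated Nrf2-knockout mice the second Abcc2 difference also passed, at 0.88 (0.0442). For Abcb1a the differences were 0.35 ± 0.51 and 0.13 ± 0.51, so a smaller response in either mutant was not shown. Between C151S and Nrf2-knockout responses, none of the 10 was called, none had an unadjusted p under 0.05, DESeq2 called none of them, and 0.0133% of all genes were called.

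Without treatment, the mutants already differed from wild-type mice in several transporters. In vehicle-treated C151S livers 4 of the 10 were called, with Abcc3 and Abcg2 lower and Abcg5 and Abcb1a higher, while 4.84% of 13946 genes tested were called. In vehicle-treated Nrf2-knockout livers 3 were called, with Abcc3, Abcc4, and Abcg2 all lower, while 10.4% of 14030 genes were called.

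Abcc3 ordered the genotypes most sharply. Against the 326 to 425 CPM of wild-type controls, vehicle-treated C151S livers held 224, 318, 238, 249, and 210 CPM, and vehicle-treated Nrf2-knockout livers held 46.8, 75.5, 121, 90.9, and 64.8 CPM. The 3 ranges did not overlap. The log2 fold change was -0.50 ± 0.12 in C151S mice, which lies at the size threshold, and -2.13 ± 0.22 in Nrf2-knockout mice (edgeR adjusted p = 0.0287 and 0.000287). Nrf2-knockout livers were also below C151S livers, by -1.63 ± 0.23 (adjusted p = 0.00906), where Abcc3 was the only transporter called and 0.349% of 14323 genes were called. That call ended on the high Arntl side, with an adjusted p of 0.101 at a log2 fold change of -1.74.

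Abcg2, the canalicular exporter of sulfated compounds, held 109, 80.3, 106, 102, and 103 CPM in wild-type controls, 60.6, 49.3, 75.4, 93.4, and 61.6 CPM in C151S controls, and 64.2, 48.7, 38.6, 49.2, and 65.9 CPM in Nrf2-knockout controls. The Nrf2-knockout range lay wholly below the wild-type range, whereas the C151S range overlapped it through replicate 4. The log2 fold changes were -0.55 ± 0.15 (edgeR adjusted p = 0.0438) and -0.90 ± 0.14 (adjusted p = 0.00254). Abcc4 differed by -0.79 ± 0.24 in Nrf2-knockout controls (adjusted p = 0.0463), whose range lay below that of wild-type controls, and had a value of -0.58 ± 0.25 in C151S controls (adjusted p = 0.167). Abcc2 in Nrf2-knockout controls was at -0.46 ± 0.14, with an adjusted p of 0.0494 but under the size threshold. On the high Arntl side the Abcc4 call ended at -0.57 (adjusted p = 0.231 in edgeR) and Abcc2 passed at -0.74 (0.0316), and with upper-quartile normalization the Abcc4 call ended at -0.70 (0.0762).

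Abcb1a was higher in vehicle-treated C151S livers, at 5.65, 5.48, 5.03, 4.10, and 5.28 CPM, than in any wild-type control, with a log2 fold change of 1.01 ± 0.14 and an edgeR adjusted p of 0.00242. In Nrf2-knockout controls it was scattered, at 1.87, 5.44, 8.93, 3.40, and 1.62 CPM, and the log2 fold change of 0.77 ± 0.41 was not called. Abcg5 in C151S controls held 134, 99.9, 131, 89.5, and 149 CPM against 72.9, 97.3, 64.0, 72.2, and 60.01 CPM in wild-type controls, with a log2 fold change of 0.73 ± 0.17 (adjusted p = 0.0205 in edgeR). Its partner Abcg8 was at 0.54 ± 0.17 with an adjusted p of 0.075. In 1 fit of all 30 libraries the calls of Abcb1a, Abcg5, and Abcc3 in C151S controls ended. Their values were then 0.99, 0.72, and -0.515 (edgeR adjusted p = 0.123, 0.142, and 0.155). In the high Arntl livers Abcb1a and Abcg5 were at 1.10 and 0.76 against wild-type controls, with adjusted p values of 0.000933 and 0.00763, Abcg8 and Abcc1 passed at 0.71 and 0.64 (0.00392 and 0.0413), and the Abcc3 call ended at -0.42, under the size threshold.

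Several of these genotype calls ended when 1 liver was left out. The Abcc3 call in C151S controls was lost without C151S replicate 1, 3, 4, or 5 or wild-type replicate 1, 3, or 5, with log2 fold changes between -0.42 and -0.52. It also ended with DESeq2 and with RLE normalization (-0.496 in both), with upper-quartile normalization (-0.449), and under a filter that kept only genes with 10 or more counts per library (-0.484). Abcg2 in C151S controls stayed called only without C151S replicate 4 or wild-type replicate 2, and otherwise had edgeR adjusted p values up to 0.0975. Abcg5 was lost without wild-type replicate 3, 4, or 5 (0.0547, 0.0551, and 0.0592). Abcc4 in Nrf2-knockout controls stayed called only without Nrf2-knockout replicate 4, with adjusted p values of 0.0485 to 0.101 over the 10 fits. Calls were gained by Abcg8 in C151S controls without C151S replicate 4 (0.67, adjusted p = 0.00557 in edgeR) and by Abcc2 in Nrf2-knockout controls without Nrf2-knockout replicate 1 (-0.52) or wild-type replicate 2 (-0.50). In Nrf2-knockout controls 4 of 6 sinusoidal endothelium markers, 2 of 6 stellate cell markers, and both neutrophil markers tested were called higher than in wild-type controls, with endothelial sums of 207 to 328 against 166 to 199 CPM. In C151S controls 1 of 5 cholangiocyte markers tested was called, and it was lower. The part of these markers in the transporter values was not tested.

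After CDDO-Me the same 4 transporters, Abcc2, Abcc3, Abcc4, and Abcg2, were lower in both mutants than in wild-type livers, and none was higher. In each of the 4, every mutant liver was below every wild-type liver, in genes picked by the test and without a count of this over all genes. Among all genes, 5% of 13844 were called between C151S and wild-type and 9.44% of 13935 between Nrf2-knockout and wild-type livers. Both comparisons use the same 5 treated wild-type livers. The median log2 fold change of the 10 transporters was -0.43 and -0.54. Of the cell type markers, 2 of 10 for hepatocytes and 1 of 6 for stellate cells were higher and 1 of 6 for Kupffer cells was lower in C151S livers, and 1 of 10 for hepatocytes and 1 of 6 for sinusoidal endothelium were higher and 1 of 6 for Kupffer cells was lower in Nrf2-knockout livers. Their part in the transporter values was not tested.

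Abcc3 held 134, 254, 285, 273, and 304 CPM in treated C151S livers and 62.3, 65.8, 81.6, 80.4, and 104 CPM in treated Nrf2-knockout livers, against 539 to 836 CPM in treated wild-type livers. Replicate 1 was the lowest of the treated C151S livers for every transporter but Abcg2 and Abcb4. The log2 fold changes were -1.47 ± 0.21 and -3.13 ± 0.19 (edgeR adjusted p = 0.00223 and 8.09e-07). Nrf2-knockout livers were again below C151S livers, by -1.66 ± 0.22 (adjusted p = 0.0135), and Abcc3 was the only transporter called there, with 0.162% of 14186 genes called. On the high Arntl side, with 2 livers per group, that difference was -1.20 and was not called.

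Abcc4 in treated livers differed from wild-type by -2.45 ± 0.28 in C151S and -2.71 ± 0.28 in Nrf2-knockout mice (edgeR adjusted p = 0.000472 and 8.71e-05). Abcc2 held 512, 647, 884, 899, and 766 CPM in treated C151S livers and 502, 483, 636, 596, and 536 CPM in treated Nrf2-knockout livers, with differences from wild-type of -0.78 ± 0.17 and -1.21 ± 0.14 (adjusted p = 0.0229 and 0.000221). Abcg2 held 60.7, 52.9, 84.8, 51.4, and 54.5 CPM in treated C151S livers and 64.0, 42.0, 53.7, 57.3, and 49.8 CPM in treated Nrf2-knockout livers, against 102, 111, 131, 132, and 101 CPM in treated wild-type livers. Its differences of -0.90 ± 0.14 and -1.09 ± 0.13 (adjusted p = 0.00426 and 0.000183) were seen although Abcg2 itself was not called after CDDO-Me in wild-type mice. The Abcc2 call in C151S mice was lost without C151S replicate 5 (adjusted p = 0.0549) or wild-type replicate 1, 3, or 4 (0.0526, 0.0649, and 0.0503).

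The remaining transporters were not called between treated genotypes. Abcb4, the phosphatidylcholine transporter, had differences of -0.23 ± 0.19 and -0.20 ± 0.18, and Abcc6 had 0.23 ± 0.15 and 0.10 ± 0.12. Abcb1a held 2.24, 5.15, 6.27, 9.32, and 9.81 CPM in treated C151S livers and was at 0.66 ± 0.33 against wild-type in C151S and at 0.63 ± 0.26 in Nrf2-knockout mice (adjusted p = 0.240 and 0.139 in edgeR). Without C151S replicate 1 the C151S value was 0.87 and passed the test (adjusted p = 0.0291), while on the high Arntl side, which keeps replicates 1 and 2, it was -0.16. The 3 C151S livers on the low Arntl side were those at 6.27, 9.32, and 9.81 CPM.

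**Figure D3:**
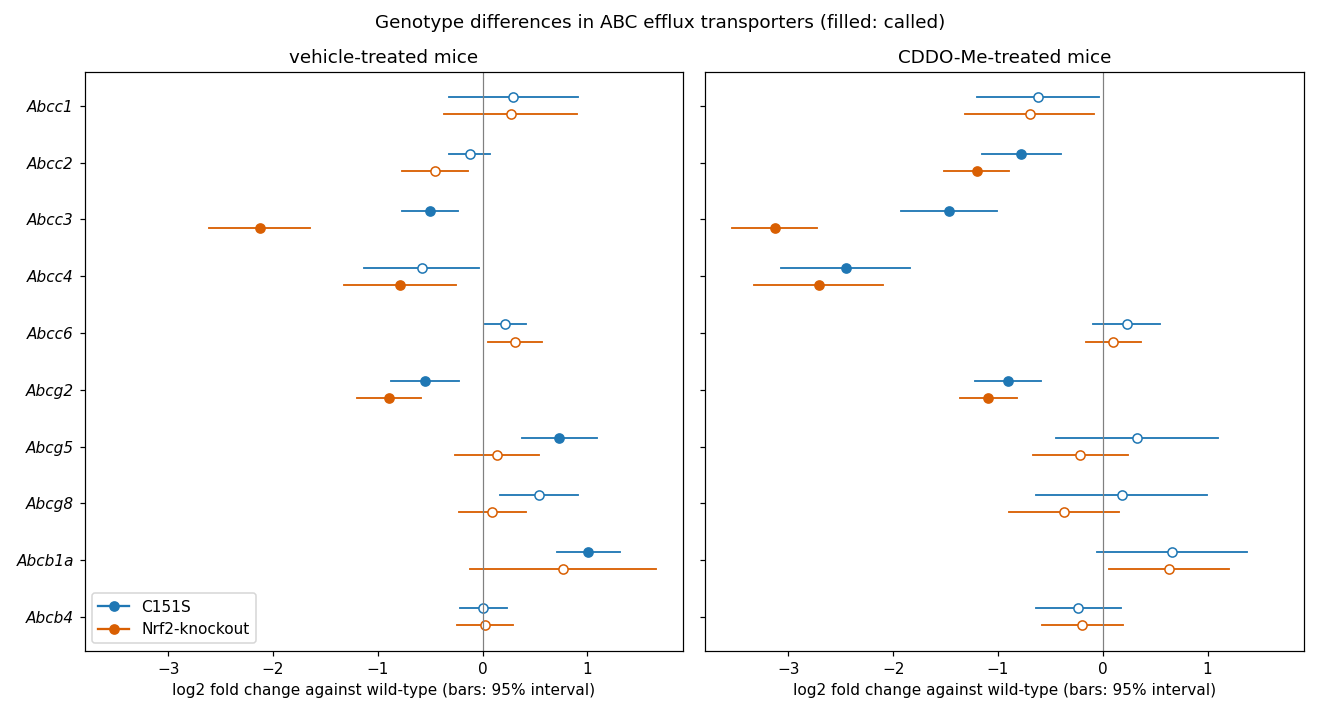
Log2 fold change of each transporter in C151S and Nrf2-knockout livers against wild-type livers (horizontal axes) after vehicle (left) and after CDDO-Me (right), 5 mice per group, bars 95% intervals, filled points called. Abcc3 lies farthest left in Nrf2-knockout mice, at -2.13 and -3.13, and after CDDO-Me the filled points are Abcc2, Abcc3, Abcc4, and Abcg2 in both mutants.

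Abcg5 and Abcg8 encode subunits of 1 sterol exporter and lie head to head on chromosome 17. The stretch between the facing RefSeq start sites, 84683011 for Abcg5 on the minus strand and 84683121 for Abcg8 on the plus strand, is 109 bases long (chr17:84683012-84683120, GRCm38.p6). It is shown on the plus strand, with no match to the antioxidant response element core.
Abcg5 to Abcg8: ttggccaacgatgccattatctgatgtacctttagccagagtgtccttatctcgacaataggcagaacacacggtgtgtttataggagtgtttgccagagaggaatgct
The transcripts of this pair moved together from liver to liver. The ratio of Abcg8 to Abcg5 CPM ranged from 0.871 to 1.38 over the 30 livers, with a median of 1.14. After the mean of each group was taken away, their log2 CPM correlated with a Pearson's r of 0.945 and a Spearman's rho of 0.928 (n = 30, 2-sided permutation p = 1e-05 for each, the smallest that 100000 resamples can give). The permutation exchanged livers across the 6 groups, whose spreads differ, so these p values are approximate. Without the 2 livers farthest from the median of Abcg5, which were replicates 1 and 5 of the treated C151S mice, r was 0.90. Of the 45 pairs among the 10 transporters, computed in the same way and sharing library and scaling, the other 44 ranged from -0.478 to 0.715. In treated C151S livers the pair spread widely, with Abcg5 at 36.7, 132, 106, 170, and 185 CPM and Abcg8 at 40.6, 170, 97.5, 165, and 182 CPM. A longer Abcg8 transcript starts inside the Abcg5 span at 84676302, so that the genes overlap on opposite strands, and the counting used strand.

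**Figure D4:**
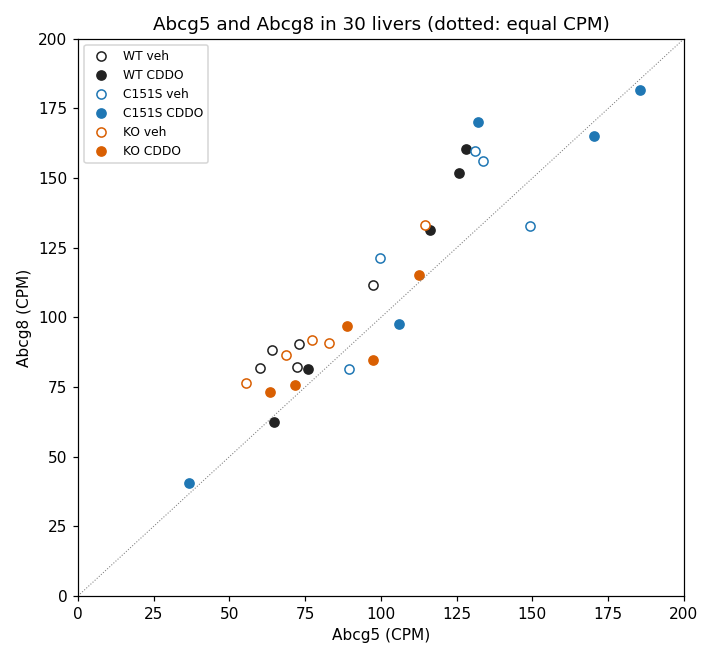
Abcg8 against Abcg5, both in CPM, in the 30 livers, 1 point per mouse, open for vehicle and filled for CDDO-Me, with a dotted line at equal CPM. The points follow the line from 36.7 and 40.6 CPM to 185 and 182 CPM, both ends being treated C151S livers.

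The rest of the ABC family was compared in wild-type liver to set the 10 in context. Of 43 further ABC genes listed, 33 passed the filter on low counts, and 2 were called after CDDO-Me, both higher, with a median log2 fold change of -0.06. Abcc12, a gene of the same subfamily as the MRP transporters, was at 3.09 ± 0.40 (edgeR adjusted p = 0.000802). Abcc12 was scarce, at 0.50 ± 0.28 CPM after vehicle and 4.29 ± 1.98 CPM after CDDO-Me. Abcb11, the bile salt export pump, was at -0.33 ± 0.07 with an adjusted p of 0.0137, under the size threshold, and it is named here after its value was seen.

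**Figure D5:**
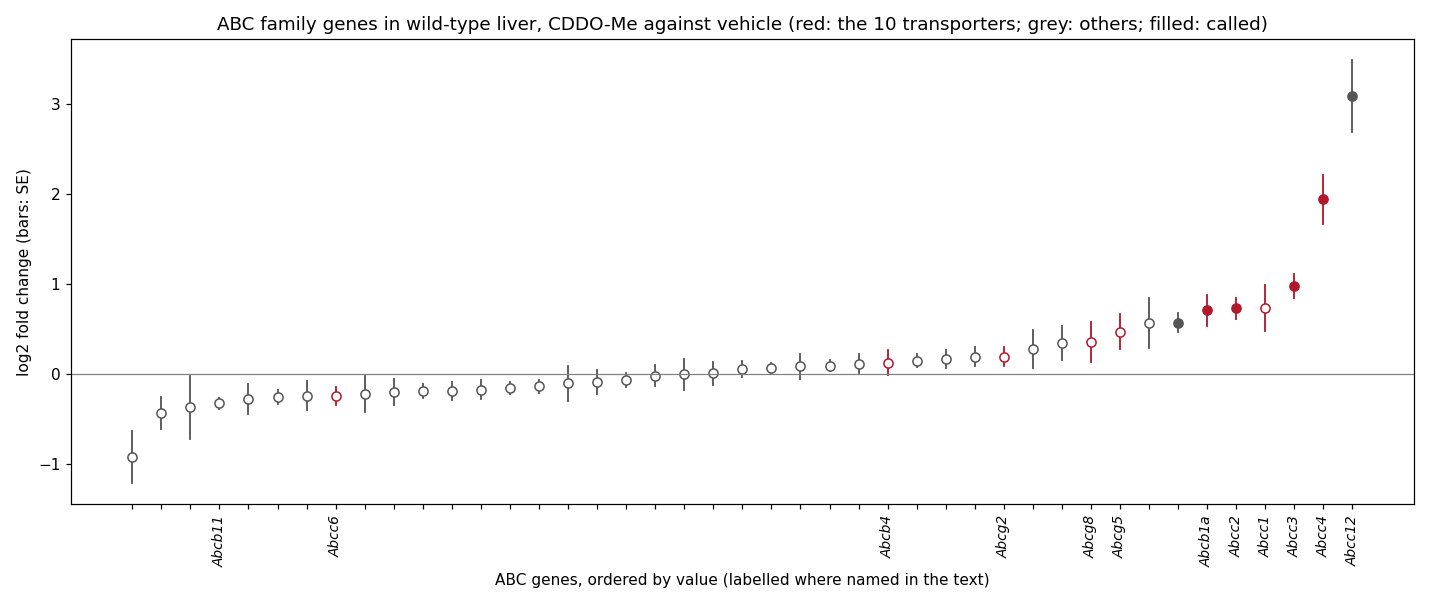
Log2 fold change after CDDO-Me in wild-type liver (vertical axis, bars SE) for the 10 transporters (red) and the 33 other ABC genes tested (grey), ordered by value along the horizontal axis, labelled where named in the text, and filled where called. Abcc12 at 3.09 and Abcc4 at 1.94 lie at the upper end, and 6 of the 43 points are filled.

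Lists of other transport genes were compared in wild-type mice in the same way. None of 13 uptake transporters and none of 9 tested exporters and canalicular partners was called, with medians of -0.08 and -0.02. Of 14 nuclear receptors and factors known to act on these transporters, 1 was called, Nr1i3, the constitutive androstane receptor, at 1.15 ± 0.19 (edgeR adjusted p = 0.00398). Of 9 NRF2 reference targets tested, 8 rose, with a median of 1.37, among them Cbr3 at 5.24, Gstm1 at 2.42, Srxn1 at 2.19, and Txnrd1 at 1.11. The response of Abcc4 lay between those of Txnrd1 and Srxn1.

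The genes most like each responding transporter were found by Pearson's r of log2 CPM over the 30 libraries among 15010 genes, as a description across groups that share genotype and treatment. For Abcc2 they were Akr1c19 (0.924), Selenbp1 (0.919), and Cyp2a5 (0.915). For Abcc3 they were Aox1 (0.957), Ephx1 (0.954), and Gstm1 (0.954), and for Abcc4 Gsr (0.931), Cbr3 (0.930), and Srxn1 (0.922). For Abcb1a they included Cyp2a4 (0.849) and Abcd2 (0.813).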

How the data were processed

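Liver RNA of 30 mice was sequenced by the authors as paired-end reads of 50 bases from stranded poly(A) libraries. The authors checked read quality with fastp without removing reads, aligned them to mm10 with STAR 2.7.7, and deposited raw counts per gene on the strand of the library (submitters' processing notes and the methods of the study; their own tests used edgeR 3.36.0). The 4 STAR summary lines were left out. Counts on genes were 65.9% to 80.6% of each library's total.

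Each comparison used its own 10 libraries, with filterByExpr, the trimmed mean of M values, and the quasi-likelihood test (legacy fit) of edgeR 4.0.16 in R 4.3.3. CPM were computed from the counts, RPKM with exon lengths of GENCODE M21, and log2 CPM with a prior count of 2. SEs are log2 fold changes divided by the root of F. Dates of isolation, a covariate in the study, were not used here. The edgeR p-values set a difference between groups against the spread between mice of the same group, which is estimated partly from other genes. Any effect of the date of isolation is not separated from that spread or from the difference. Up to 3 counts in a library were treated as the floor, which covers counting error only.

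The genes named are the 10 transporters, up to 4 called genes of each list by lowest p, the 3 most similar genes for each responding transporter, and Nfe2l2, Keap1, Nqo1, and Arntl; others are marked, and some genes that the rule names are not reported here. The transporters, the lists, and the tests were chosen with earlier results of these data known. For replicate 3 of the CDDO-Me-treated C151S group, the treatment field and not the misspelled title set the group. Alternatives were DESeq2 1.42.0, other normalizations, filters, and fits, the replicate block, the Arntl side, and each mouse left out. The fits were tested on simulated counts in which genes changed only in CDDO-Me-treated wild-type mice. These counts held no genotype difference after vehicle and no split of the livers by Arntl. They therefore cannot show how the fits behave where such differences are present.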

Additional observations from a re-analysis of the deposited data

Results flagged for a closer look

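In 6 of 60 gene and group combinations, 1 mouse lay far from the other 4 by Dixon's test, which chance does in about 1 of 20. Abcb1a reached 11.3 CPM in replicate 3 of CDDO-Me-treated Nrf2-knockout mice, against 4.04 to 5.73 in the others. Abcc3 reached 425 CPM in replicate 1 of vehicle-treated wild-type mice. Abcg2 was at 84.8 CPM in replicate 3 of CDDO-Me-treated C151S mice, above its group, and at 80.3 CPM in replicate 2 of vehicle-treated wild-type mice, below its group. Abcg8 was highest in replicate 2 of both vehicle-treated Nrf2-knockout mice, at 133 CPM, and vehicle-treated wild-type mice, at 112 CPM. Whether equally numbered replicates of different groups also share a date of isolation is not known here.

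The response of Abcc4 to CDDO-Me differed between genotypes by the test of the difference itself, by 1.88 on the log2 scale between wild-type and C151S mice and by 1.93 between wild-type and Nrf2-knockout mice, and both calls were kept in each of the 30 fits that left out 1 mouse.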

How the results depend on the processing

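Of 2970 values of single transporters under other settings, 2903 kept their direction and call or stayed uncalled, 13 gained a call, 54 lost one, and none that was called changed sign, while 173 uncalled values changed sign. Leaving out each mouse gave 1 to 4 called transporters for C151S against wild-type after vehicle and 1 to 2 for the response of wild-type minus that of Nrf2-knockout. For C151S against wild-type after vehicle, 1 fit of all 30 libraries called 1, Abcg2. On the high Arntl side, Nrf2-knockout against C151S gave 0 both after vehicle and after CDDO-Me, where Abcc3 had an unadjusted edgeR p of 0.00016 and, with 2 livers per group, 0.026. The Arntl side as a covariate, added after seeing the data, gave 2 for either contrast of the wild-type response with a mutant, and it was not run in comparisons of 2 groups with wild-type mice, which lie on 1 side only.

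With the replicate number as a replicate block, 0 transporters were called for Nrf2-knockout against C151S after vehicle (Abcc3, adjusted p = 0.0585 in edgeR), 3 after CDDO-Me in wild-type mice (without Abcb1a, 0.0994), 3 for C151S against wild-type after vehicle (without Abcg5, 0.0559), 2 for Nrf2-knockout against wild-type after vehicle (without Abcc4, 0.119), and 5 after CDDO-Me (with Abcc1 at -0.67, 0.0344). Mean correlations of same-numbered deviations ran from -0.131 to 0.19 over the comparisons. At most 3 of 5 mice matched their own number best, and no comparison had every pair over 0.1. The mean of 0.19 was that of CDDO-Me against vehicle in Nrf2-knockout mice, against -0.047 for mice of different numbers. In C151S mice the high Arntl side held vehicle replicates 1 to 3 and CDDO-Me replicates 1 and 2. Pairing by number was thus not shown, but the check cannot exclude batches shared by several mice, such as dates of isolation. Abcc1, Abcc4, and Abcb1a had the fewest counts of the 10.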

Other observations

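Other transport genes differed between genotypes. Abcc12 was lower in Nrf2-knockout than in C151S livers after vehicle (edgeR adjusted p = 0.00151), at 1 to 8 against 28 to 54 counts per library, and stood after CDDO-Me at 0 to 5 counts in Nrf2-knockout against 44 to 212 in wild-type livers. With so few counts in Nrf2-knockout livers no fold is given for these 2 comparisons. In C151S controls Abcc12 was higher than in wild-type controls, at 1.18 ± 0.32 (edgeR adjusted p = 0.046). Its response to CDDO-Me was larger in wild-type than in C151S mice by 3.38 ± 0.61 (edgeR adjusted p = 0.00319). In the same contrast with Nrf2-knockout mice, none of the 35 further ABC genes tested was called, Abcc12 included. Slco1b2, an uptake transporter for bile acids and drugs, was lower in treated Nrf2-knockout livers, at -0.97 ± 0.24 (adjusted p = 0.0215).

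Nr1i3 was lower in Nrf2-knockout than in wild-type livers after vehicle, at -1.68 ± 0.32, and after CDDO-Me, at -2.55 ± 0.26. Its group means were 176 ± 47.3 and 391 ± 62.4 CPM in wild-type, 165 ± 99.7 and 229 ± 78.5 CPM in C151S, and 54.7 ± 31.5 and 66.2 ± 28.1 CPM in Nrf2-knockout livers (SD, n = 5), vehicle first. Abcb11 was lower in Nrf2-knockout controls at -0.51 ± 0.09 (adjusted p = 0.00582 in edgeR), and Abcd2, an importer of the peroxisome, was higher in C151S than in wild-type controls (adjusted p = 0.0126).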
